A study of Mus musculus with 7 samples.

Results

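The genes described here are 39 genes of the cellular defence against oxidants: the NRF2 pathway, cystine uptake, glutathione synthesis, glutathione transferases, the thioredoxin system, peroxidases, superoxide dismutases, a selenium carrier and ferritin. They were chosen by symbol, and 36 of the 39 had a probe set of their own among the 19938 genes measured. Ggt1, Prdx6 and G6pdx were not analysed here. RNA from 7 samples was hybridised to Affymetrix Mouse Gene 1.0 ST arrays, each sample on its own array. B16F10, a pigmented mouse melanoma line, was sampled as parental cells and clone A1, labelled PECAM1− (n = 2), and as clones A2, A3, A4 and A5, labelled PECAM1+ (n = 4). PECAM1, also called CD31, is a cell adhesion protein typical of endothelium. The last array held mouse dermal endothelial cells (MDEC, n = 1), also labelled PECAM1+. No agent or engineered allele is named for any sample, and B16F10 cells and MDEC grew in different media, the latter with an endothelial growth supplement. Each clone is 1 line, and nothing in the labels says whether the PECAM1+ clones arose independently or were grown in replicate cultures, so the p-values reflect how much these samples vary, and part of that variation may be technical.

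NRF2, encoded by Nfe2l2, is a transcription factor that KEAP1 holds in the cytoplasm and hands to degradation. When oxidants or electrophiles modify KEAP1, NRF2 enters the nucleus, pairs with a small MAF protein and binds antioxidant response elements near genes for glutathione synthesis, quinone reduction, haem breakdown and thioredoxin reduction. Glutathione is made from glutamate, cysteine and glycine. Its supply depends on cystine import, and peroxidases and transferases spend it. Melanocytes and melanoma cells are known for handling the oxidants that pigment synthesis yields.

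Among the B16F10 arrays, clone A1 stood apart from the rest. In clone A1, 1271 genes lay 2-fold or more away from the average of the remaining B16F10 arrays, 10 of them among the 36 antioxidant genes, and the other B16F10 arrays had 31 to 144 such genes each. Pecam1 was at a log2 level of 5.27 in parental cells, 5.43 in clone A1, 11.0 to 11.1 in clones A2 to A5 and 11.7 in MDEC. Array medians ran from 6.12 to 6.18. Over 10 melanocyte markers, the mean log2 level ran from 10.5 to 11.3 in B16F10 and was 5.90 in MDEC. The median difference of the PECAM1+ clones was 0.02 from parental cells and −0.03 from clone A1. Single markers varied more. Tyr lay 1.79 log2 units higher in the PECAM1+ clones than in parental cells. It read 8.49 on the parental array and 9.63 to 10.84 on those of clones A2 to A5. Across B16F10, Oca2 ran from 5.41 to 7.30 and Trpm1 from 6.53 to 8.51. All 12 endothelial markers were at least 2-fold higher in MDEC and outside the B16F10 range. In bulk RNA, a change in the share of cells that express a gene and a change in its level per cell cannot be told apart.

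The comparison of the PECAM1+ clones with clone A1 asked how the PECAM1+ clones differ from a PECAM1− clone of the same line. Members of glutathione supply, conjugation and oxidant defence, among them Slc7a11, Gclc, Hmox1 and Cat, were lower in the PECAM1+ clones than in clone A1. Of the 36 genes, 14 were called (38.9%, where 20.5% of all genes were), 12 lower (33.3%, where 11.2% of all genes were) and 2 higher (5.56%, where 9.33% of all genes were), by limma with an adjusted p under 0.05 over 19938 genes. Clone A1 is 1 array and 1 of the 2 PECAM1− samples. The fit assumes that it varies like the 4 clones, and these calls are differences from that clone only. Against both PECAM1− samples 0 members were called, where 0.01% of all genes were. That fit takes the 2 PECAM1− samples together, so by itself it does not show which of them differs. They lay far apart for some members, such as Slc7a11, at 5.80 in parental cells and 11.41 in clone A1. The median difference of the 36 genes was −0.27 log2 units, beside 0.00 for all genes. In the same fit, 19 of 19 measured cell cycle genes were called higher in the PECAM1+ clones. The mean log2 level of these genes was 7.49 in clone A1 and 10.6 to 10.8 on the other B16F10 arrays, and their part in the antioxidant result was not tested. Of 9 leukocyte and platelet markers, Lyz2 differed most, at 4.78 in clone A1 and 6.34 to 8.03 in the PECAM1+ clones. Its difference of 2.55 was not called. Cd68 (−1.995) and Itga2b (−1.19) were called lower than in clone A1. The part of these markers in the antioxidant result was not tested either.

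**Figure D1:**
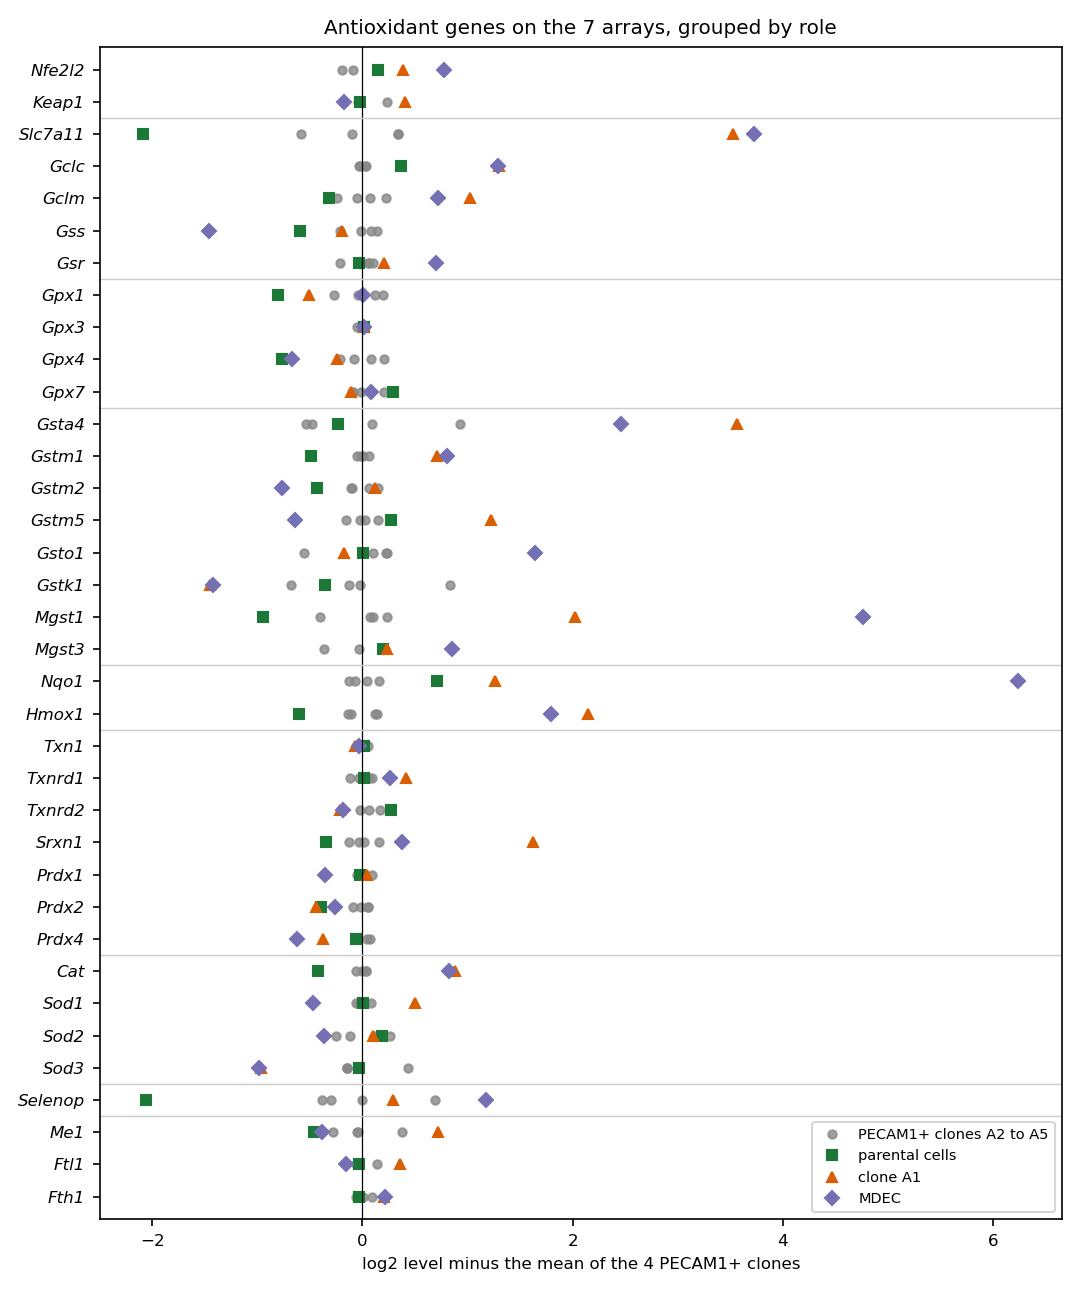
Log2 level of each of the 36 genes on each array, minus the mean of the 4 PECAM1+ clones; grey circles are clones A2 to A5, squares parental cells, triangles clone A1 and diamonds MDEC, and lines separate the roles. Clone A1 lies far to the right for Slc7a11, Gsta4, Hmox1, Mgst1 and Srxn1, and MDEC lie far to the right for Nqo1, Mgst1 and Slc7a11.

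Neither the sensor nor the regulator gene was called. Nfe2l2 was at 10.69 for parental cells, 10.92 for clone A1, 10.68, 10.68, 10.34 and 10.44 in clones A2 to A5, and 11.31 in MDEC. Clone A1 held the highest B16F10 value and MDEC the highest of all, and the difference of −0.38 ± 0.17 (SE) between the PECAM1+ clones and clone A1 was not called (limma adjusted p = 0.218). Keap1, which encodes the inhibitor of NRF2, was at 8.11 in clone A1, 7.69 in parental cells, 7.94, 7.69, 7.53 and 7.66 in clones A2 to A5 and 7.52 in MDEC, and its difference of −0.40 ± 0.17 (SE) from clone A1 was not called either (limma adjusted p = 0.193).

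Cystine uptake showed one of the widest ranges. Slc7a11 encodes the light chain of the cystine and glutamate exchanger xCT, which brings in the cystine from which glutathione gets its cysteine. Its log2 level was 5.80 in parental cells, 11.41 in clone A1, 7.30, 8.23, 7.79 and 8.23 in clones A2 to A5, and 11.62 in MDEC. Parental cells were lowest, the PECAM1+ clones lay between, and clone A1 and MDEC stood far above. The PECAM1+ clones differed from clone A1 by −3.53 ± 0.43 (SE) log2 units, or 11.5-fold (limma adjusted p = 0.0139). Without clone A5 that call was lost, with a difference of −3.64 (limma adjusted p = 0.0501). Slc7a11 is also a target of ATF4, the transcription factor of amino acid stress. In a list of 17 such stress genes, 9 were called lower in the PECAM1+ clones than in clone A1 and 3 higher. Over all genes, 11.2% and 9.33% were. Atf3 differed by −3.15, Nupr1 by −2.85, Trib3 by −2.29 and, among the 3 higher, Ddit4 by 1.24. The part of these genes in the Slc7a11 result was not tested.

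The 5 stretches that follow lie upstream of genes called lower than in clone A1, from −180 to −81 relative to the start site for Gclm and from −100 to −1 for the others. They are shown because each holds a short motif of a factor named above. Capitals mark every match of TGACNNNGC, the core of the element bound by NRF2 with a small MAF protein, in the first 4, and of TGATGNAA, the core of an ATF4 element, in the last. Sequences are from RefSeq, build GRCm38.p6, on the gene's own strand, 100 bases each.
Gclm, chr3:122245377-122245476, plus strand: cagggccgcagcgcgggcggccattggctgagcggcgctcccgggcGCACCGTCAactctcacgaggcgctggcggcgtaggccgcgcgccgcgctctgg
Mgst1, chr6:138140427-138140526, plus strand: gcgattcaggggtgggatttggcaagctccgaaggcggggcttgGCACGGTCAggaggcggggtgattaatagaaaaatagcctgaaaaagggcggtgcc
Gstm5, chr3:107895754-107895853, plus strand: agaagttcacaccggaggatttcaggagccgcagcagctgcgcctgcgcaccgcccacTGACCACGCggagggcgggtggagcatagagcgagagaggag
Sod1, chr16:90220662-90220761, plus strand: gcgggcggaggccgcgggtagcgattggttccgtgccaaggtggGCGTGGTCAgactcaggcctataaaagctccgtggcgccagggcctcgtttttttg
Slc7a11, chr3:50443614-50443713, minus strand: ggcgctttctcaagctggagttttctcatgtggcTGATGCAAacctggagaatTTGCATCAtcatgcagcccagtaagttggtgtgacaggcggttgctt

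Windows of 250 bases before to 50 after each listed start were searched on both strands. Of the 39 genes, 33 had a window. TGACNNNGC was found for 11 of the 33 genes, and 14% of all 27025 genes with windows held it. Some genes had several windows. Counted by window, 13 of 47 windows of members held it, beside 12.4% of all 32851 windows. The other members with a match were Srxn1, after its start, and Nfe2l2, Prdx1, Txnrd1, Me1, Ggt1 and G6pdx. The AP-1 site TGANTCA, which can overlap it, was found for Gstm5, Me1, Prdx1 and Srxn1 (8.97% of all genes), and it overlapped TGACNNNGC in Me1 and Prdx1. TGATGNAA was found for Slc7a11 among the 33, with matches that begin at −66 and −47 relative to the start, and for 4.51% of all genes. A match describes the letters and not binding, and a gene without a match may have one elsewhere. Gclc, Gsr, Gsta4, Hmox1, Prdx6 and Sod3 were not searched here.

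The genes of glutathione synthesis differed in their pattern. Gclc and Gclm encode the catalytic and the modifier subunit of glutamate-cysteine ligase, the rate-limiting enzyme. Gclc was at 9.13 for parental cells, 10.07 for clone A1, 8.80, 8.73, 8.74 and 8.79 in clones A2 to A5, and 10.06 in MDEC. The 4 clones lay within 0.07 log2 units of each other and below every other array, and the difference from clone A1 was −1.30 ± 0.06 (SE; limma adjusted p = 0.00283). Gclm was at 10.56 for parental cells, 11.91 for clone A1, 10.95, 11.10, 10.82 and 10.64 in clones A2 to A5, and 11.60 in MDEC. Here parental cells lay just below the clones, and the difference of −1.03 ± 0.19 (SE) from clone A1 was called (limma adjusted p = 0.0353), a call lost without any 1 of the 4 clones (limma adjusted p from 0.0561 to 0.093). Gss, which encodes the synthetase of the last step, did not follow. Its level was 9.59 in clone A1, 9.19 in parental cells, 9.57, 9.93, 9.77 and 9.87 in clones A2 to A5 and 8.33 in MDEC, with no call in any of the B16F10 comparisons. Gsr, which encodes the reductase that restores glutathione, ran from 9.05 to 9.47 in B16F10, was at 9.96 in MDEC, and was not called.

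Hmox1 and Nqo1, the classic inducible genes of the pathway, were called lower than in clone A1. Hmox1 encodes haem oxygenase-1, which breaks down haem. Its levels were 9.91 in parental cells, 12.66 in clone A1, 10.41, 10.64, 10.66 and 10.38 in clones A2 to A5, and 12.32 in MDEC. Clone A1 and MDEC stood above all other arrays, and the PECAM1+ clones differed from clone A1 by −2.14 ± 0.14 (SE) log2 units, or 4.42-fold (limma adjusted p = 0.00479). Nqo1 encodes the NADPH quinone reductase. Its log2 level read 4.99 in parental cells, 5.55 in clone A1, 4.21, 4.44, 4.16 and 4.32 in clones A2 to A5, and 10.52 in MDEC. All B16F10 arrays were far below MDEC, and within B16F10 the difference from clone A1 was −1.26 ± 0.12 (SE; limma adjusted p = 0.00876). Nqo1, Gpx3 and Gpx7 had a mean log2 level under 6 over the 7 arrays. Gsta4 and Mgst1 were under 6 in parental cells and some clones, and Slc7a11 in parental cells. Signal over background is not known at these levels, so the differences that rest on them carry no exact fold.

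Glutathione transferases join glutathione to electrophiles. Of 8 measured members, 4 were called lower in the PECAM1+ clones than in clone A1, where 11.2% of all genes were. Gsta4, known for clearing the lipid aldehyde hydroxynonenal, was at 5.86 for parental cells, 9.65 for clone A1, 5.55, 5.61, 7.02 and 6.18 in clones A2 to A5, and 8.55 in MDEC. The PECAM1+ clones differed from clone A1 by −3.56 ± 0.66 (SE; limma adjusted p = 0.0339), and the call was lost without clone A2, A3 or A5 (limma adjusted p from 0.0843 to 0.109). Mgst1 encodes a transferase of the endoplasmic reticulum and outer mitochondrial membranes. Mgst1 was at 5.31 for parental cells, 8.29 for clone A1, 5.85, 6.36, 6.49 and 6.33 in clones A2 to A5, and 11.03 in MDEC. Parental cells were again lowest, and the difference from clone A1 was −2.03 ± 0.27 (SE; limma adjusted p = 0.017), lost without clone A3 (0.0638) or A5 (0.0695).

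The Gstm genes lie in a family of close relatives, and probes of 1 member may also bind transcripts of another. Gstm1 was at 9.72 for parental cells, 10.92 for clone A1, 10.27, 10.21, 10.15 and 10.19 in clones A2 to A5, and 11.01 in MDEC, a difference of −0.71 ± 0.06 (SE) from clone A1 (limma adjusted p = 0.00737). Gstm5 was at 9.76 for parental cells, 10.71 for clone A1, 9.63, 9.33, 9.46 and 9.51 in clones A2 to A5, and 8.84 in MDEC. Gstm5 thus had its highest value in clone A1 and its lowest in MDEC, and the difference from clone A1 was −1.23 ± 0.13 (SE; limma adjusted p = 0.0105). That call was lost without clone A5 (limma adjusted p = 0.0502). Gstm2 was not called, at 10.22 in clone A1, 9.67 in parental cells and 9.99 to 10.25 in the PECAM1+ clones. Gsto1, a cytosolic transferase of the omega class, was at 9.25 in clone A1, 9.43 in parental cells, 9.53, 9.67, 8.87 and 9.65 in clones A2 to A5 and 11.07 in MDEC, so that only MDEC stood apart. Gsto1, the mitochondrial and peroxisomal Gstk1 and the membrane-bound Mgst3 were not called either. Gstk1 went the other way, at 6.05 in clone A1, 7.15 in parental cells and 6.83 to 8.34 in the PECAM1+ clones, with a difference of 1.46 ± 0.60 (SE; limma adjusted p = 0.191).

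**Figure D2:**
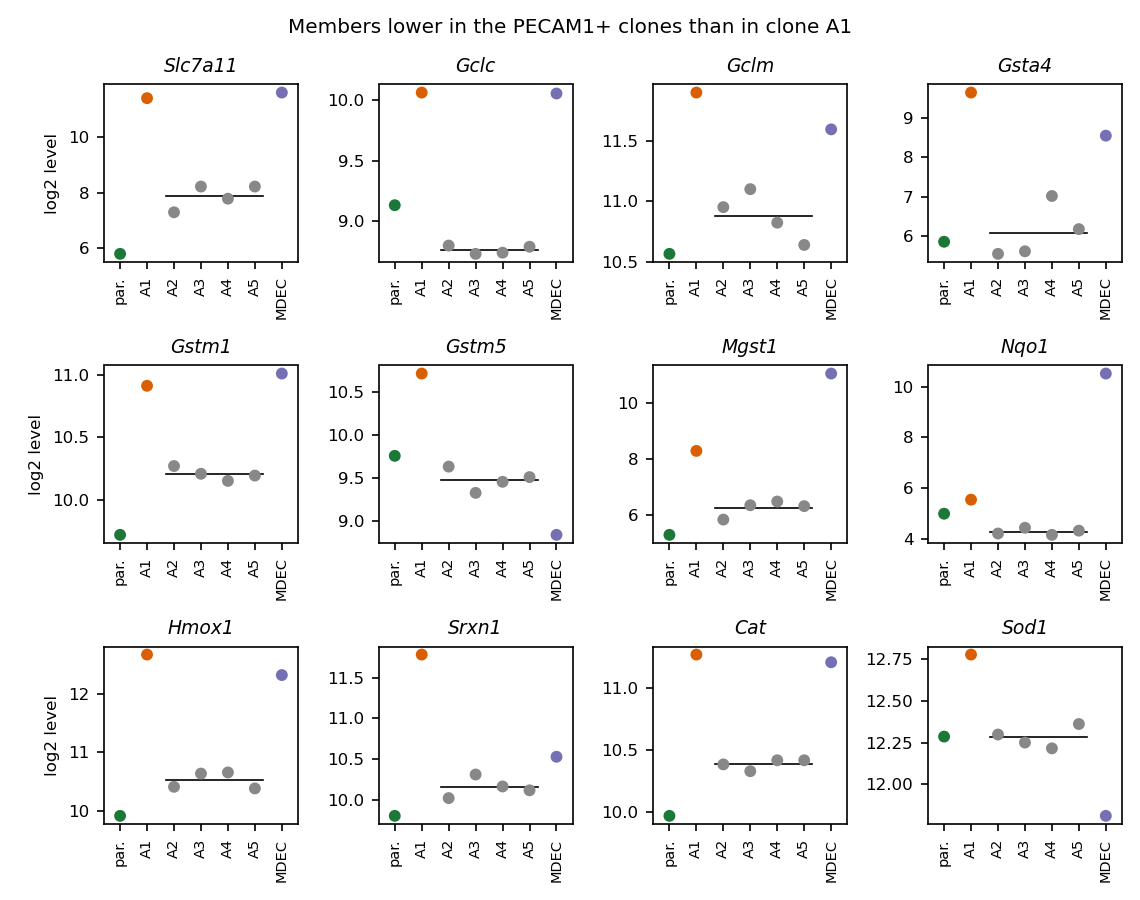
Log2 level of the 12 genes called lower in the PECAM1+ clones than in clone A1, by array (par., parental cells); the line is the mean of clones A2 to A5, and each panel has its own axis, which does not start at 0. Clone A1 is the highest B16F10 array in all 12 panels. MDEC lie near clone A1 for Slc7a11, Gclc, Gclm, Gstm1, Hmox1 and Cat but below all B16F10 arrays for Gstm5 and Sod1.

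Of 7 measured genes of the thioredoxin system, 1 was called lower than in clone A1 and 2 higher. Over all genes, 11.2% and 9.33% were. Srxn1 encodes sulfiredoxin, which repairs overoxidised peroxiredoxins. Srxn1 was at 9.81 for parental cells, 11.78 for clone A1, 10.03, 10.32, 10.17 and 10.12 in clones A2 to A5, and 10.53 in MDEC, a difference of −1.62 ± 0.12 (SE), or 3.08-fold, from clone A1 (limma adjusted p = 0.00579). Prdx2, a cytosolic peroxiredoxin, was at 11.81 for parental cells, 11.76 for clone A1, 12.11, 12.19, 12.26 and 12.26 in clones A2 to A5, and 11.94 in MDEC. The PECAM1+ clones were above all other arrays, and the difference from clone A1 was 0.45 ± 0.07 (SE; limma adjusted p = 0.0251), lost without clone A3, A4 or A5 (limma adjusted p from 0.0598 to 0.0827). The second Prdx2 probe set gave 0.86 for the same difference. Prdx4 encodes the peroxiredoxin of the endoplasmic reticulum. Its level was 7.53 in clone A1, 7.85 in parental cells, 7.98, 7.85, 7.85 and 7.95 in clones A2 to A5 and 7.29 in MDEC. Prdx4 was 0.38 ± 0.08 (SE) higher than in clone A1 (limma adjusted p = 0.0434), and this was lost with median centring (limma adjusted p = 0.0726) and without any 1 clone. Thioredoxin itself, Txn1, lay between 13.00 and 13.12 on all 7 arrays. Its difference from clone A1 was 0.07, with a 95% interval from −0.05 to 0.19, and Txn1 was called with quantile normalization. Prdx1 lay between 11.81 and 11.95 in B16F10. The cytosolic thioredoxin reductase gene Txnrd1 was at 10.97 in clone A1 and 10.44 to 10.65 on the other B16F10 arrays, with a difference of −0.42 ± 0.10 (SE) from clone A1 that was not called (limma adjusted p = 0.0624). Txnrd1 was called with quantile normalization, median centring and the filter on dim genes. The mitochondrial Txnrd2 lay between 7.59 and 8.08 and was not called.

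Catalase and superoxide dismutases differed among themselves. Cat encodes the peroxisomal enzyme that splits hydrogen peroxide. Cat was at 9.97 for parental cells, 11.27 for clone A1, 10.38, 10.33, 10.41 and 10.41 in clones A2 to A5, and 11.21 in MDEC. The clones were tightly grouped, above parental cells and below clone A1, with a difference of −0.88 ± 0.06 (SE) from the latter (limma adjusted p = 0.00429). Sod1, the cytosolic copper and zinc enzyme, was at 12.29 for parental cells, 12.78 for clone A1, 12.22 to 12.36 in the PECAM1+ clones and 11.81 in MDEC, a difference of −0.50 ± 0.06 (SE) from clone A1 (limma adjusted p = 0.0161) that was lost without clone A2 (0.0547) or A3 (0.0608). The mitochondrial Sod2 ran from 10.29 to 10.80 in B16F10 and was not called. The extracellular Sod3 was at 6.15 in clone A1, 7.08 in parental cells and 6.96 to 7.54 in the PECAM1+ clones (limma adjusted p = 0.0954), with the same value in clones A2, A4 and A5. Sod3 was called with the filter on dim genes.

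Ferritin and NADPH genes had their highest B16F10 value in clone A1 without passing. Ferritin stores iron. Its light chain gene Ftl1 was at 12.89 in clone A1 and 12.47 to 12.67 on the other B16F10 arrays, with a difference of −0.36 ± 0.09 (SE; limma adjusted p = 0.07), and the heavy chain gene Fth1 was at 12.95 and 12.68 to 12.83 (limma adjusted p = 0.112). Ftl1 was called with median centring and with the filter on dim genes. Many ferritin light chain probe sets carry several gene names, so that the Ftl1 value may include transcripts of copies. Me1, the cytosolic malic enzyme that yields NADPH, was at 10.38 in clone A1, 9.20 in parental cells and 9.38 to 10.03 in the PECAM1+ clones (limma adjusted p = 0.152). In all, clone A1 had the highest B16F10 value for 20 of the 36 genes, beside 26.4% of all genes, and the lowest for 7, beside 28.9%. Of these, 9 were also at least 2-fold above the mean of the PECAM1+ clones (3.22% of all genes) and 1, Gstk1, as far below it (3.28%).

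The calls against clone A1 changed with the PECAM1+ clones that entered the fit. Gclc, Gstm1, Nqo1, Hmox1, Srxn1 and Cat were called in each of the 4 fits that left out 1 PECAM1+ clone. Between 7 and 12 members were called in those fits, with 7 without clone A5 and 9 without clone A3.

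**Figure D3:**
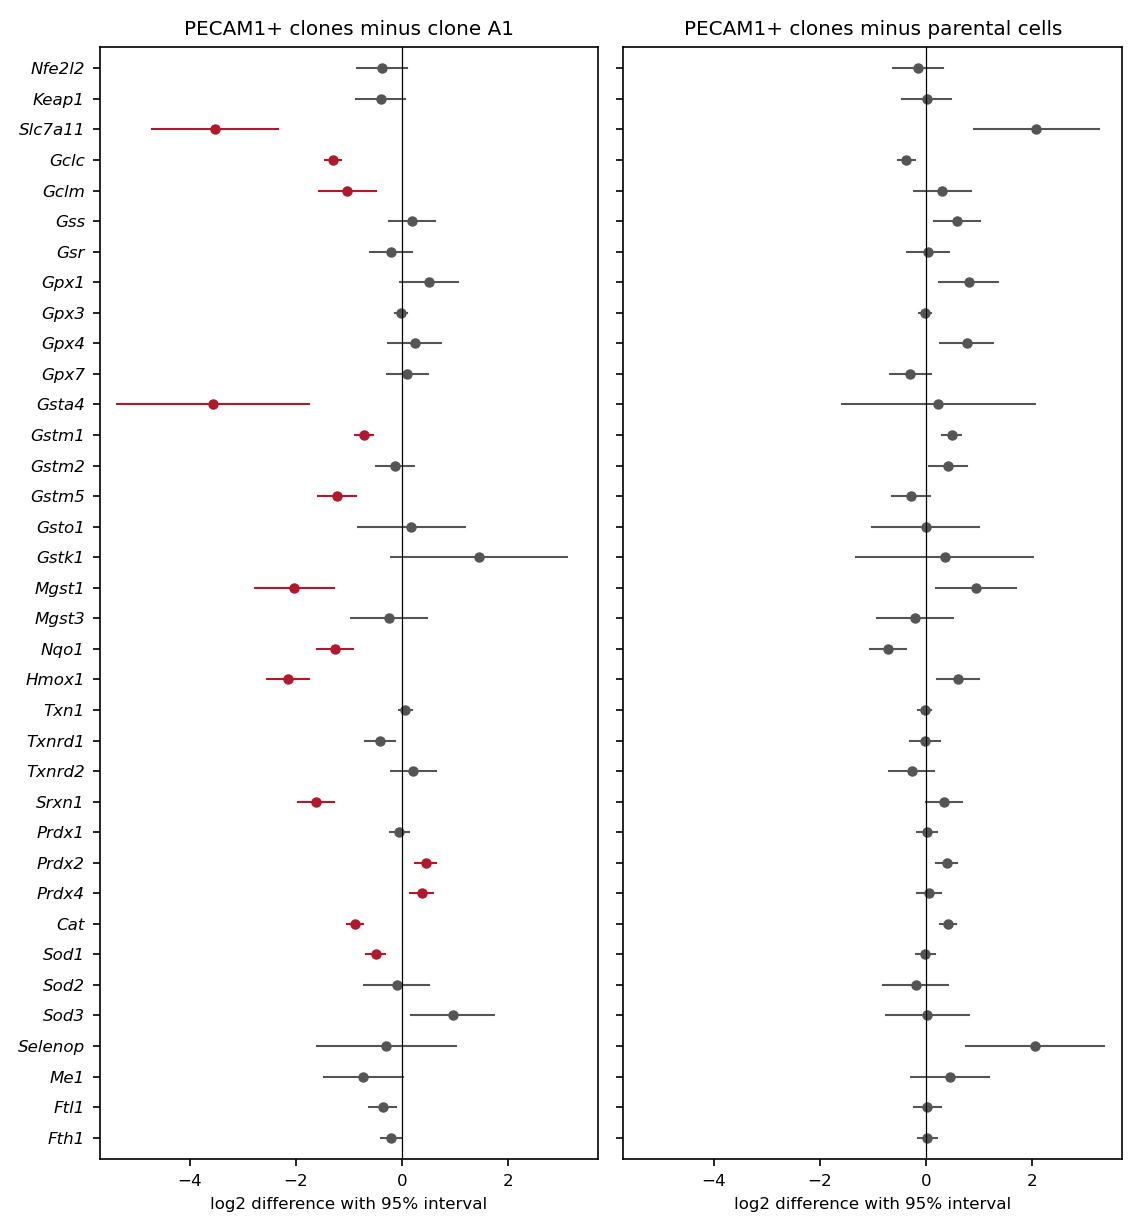
Log2 difference of the PECAM1+ clones from clone A1 (left) and from parental cells (right) for each gene, with 95% limma intervals; red marks genes with an adjusted p under 0.05. On the left 12 genes are red below 0 and 2 above it, and on the right none is red. Both panels use the same 4 PECAM1+ arrays.

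Against parental cells, the comparison asked how the PECAM1+ clones differ from the parental cells of the line. No antioxidant gene was called, beside 0.01% of all genes (0.00502% in each direction), with limma adjusted p from 0.132 to 1. At an unadjusted p under 0.05 there were 14 of the 36, beside 13.5% of all genes. Of these, 12 were higher (6.78% of all genes) and 2, Gclc and Nqo1, lower (6.68%). Parental cells are 1 array, and the fit shares the 4 PECAM1+ arrays with the fit against clone A1. Slc7a11 had the largest difference, at 2.09 ± 0.43 (SE) log2 units above parental cells (limma adjusted p = 0.206). Parental cells were below all 4 PECAM1+ clones for 14 of the genes (20.6% of all genes) and above all 4 for 6 (22.1%).

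Selenop, Gpx1 and Gpx4 had lower values in parental cells than in any PECAM1+ clone, though none was called, and the selenoenzyme gene Txnrd2 had a higher one. Selenop encodes selenoprotein P, a secreted carrier of selenium. Selenop was at 7.24 for parental cells, 9.59 for clone A1, 9.004, 8.91, 9.99 and 9.29 in clones A2 to A5, and 10.47 in MDEC. Parental cells were the lowest array and all clones of either label lay well above, and the PECAM1+ clones differed from parental cells by 2.06 ± 0.47 (SE; limma adjusted p = 0.227). Gpx1, the cytosolic glutathione peroxidase with selenocysteine in its active site, was at 10.28 for parental cells, 10.58 for clone A1, 10.82, 11.05, 11.28 and 11.21 in clones A2 to A5, and 11.10 in MDEC. Gpx4, the selenoenzyme that reduces lipid hydroperoxides in membranes, was at 10.50 for parental cells, 11.02 for clone A1, 11.06, 11.19, 11.48 and 11.35 in clones A2 to A5, and 10.60 in MDEC. Clone A1 was close to clone A2 for Gpx4, and MDEC were close to parental cells. Differences from parental cells were 0.81 ± 0.20 (SE) for Gpx1 (limma adjusted p = 0.245) and 0.77 ± 0.18 (SE) for Gpx4 (0.233), and the other Gpx4 probe set gave 0.78. Gpx3, the extracellular peroxidase, lay between 4.61 and 4.69 on all 7 arrays, and Gpx7 between 5.23 and 5.62.

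Across the labelled groups, all 4 PECAM1+ clones were set against both PECAM1− samples to ask which antioxidant genes go with PECAM1 status. None was called by limma, beside 0.01% of all genes and 0.00502% in each direction (limma adjusted p from 0.299 to 0.964). An unadjusted p under 0.05 was found for 6, where it was for 9.18% of all genes, with 3 higher (4.08%) and 3 lower (5.1%). Without parental cells this fit is the one against clone A1, with 14 calls. The groups did not overlap for 7 of the 36 genes, where they did not for 16.4% of all genes. Gpx1, Gpx4 and Prdx2 were higher in every PECAM1+ clone than in either PECAM1− sample (7.73% of all genes were), with differences of 0.66 ± 0.16, 0.51 ± 0.19 and 0.42 ± 0.06 (SE). Nfe2l2, Gclc, Gstm5 and Nqo1 were lower in every PECAM1+ clone (8.68% of all genes were), with differences of −0.27 ± 0.14, −0.83 ± 0.25, −0.75 ± 0.27 and −0.99 ± 0.17 (SE). For Nfe2l2 the gap between parental cells and clone A2 was under 0.01 log2 units. For 8 genes, parental cells lay below all PECAM1+ clones and clone A1 above all of them, where 6.28% of all genes did so. These were Slc7a11, Mgst1, Hmox1, Srxn1, Gstm1, Gclm, Me1 and Cat. Gpx7 and Txnrd2 lay the other way, above all PECAM1+ clones in parental cells and below all of them in clone A1.

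**Figure D4:**
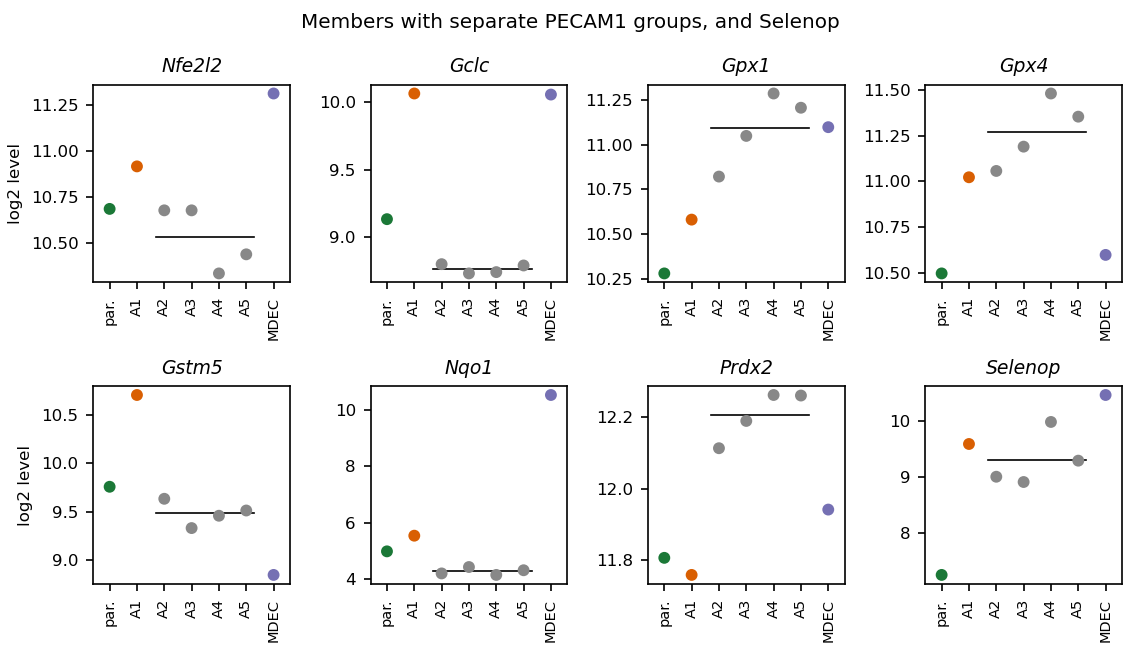
Log2 level by array (par., parental cells) of the 7 genes whose PECAM1+ and PECAM1− arrays did not overlap, and of Selenop; the line is the mean of clones A2 to A5, and each panel has its own axis, which does not start at 0. Gpx1, Gpx4 and Prdx2 lie higher in clones A2 to A5 than in parental cells and clone A1, and Nfe2l2, Gclc, Gstm5 and Nqo1 lie lower.

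The PECAM1+ clones were alike for most of these genes. Their SD ran from 0.03 for Gclc to 0.68 for Gsta4, with a median of 0.14 over the 36 genes. Gsta4, Gstk1 and Selenop spanned at least 2-fold among the clones, where 1.27% of all genes did, and clone A4 held the highest value of each. For Gsta4 clone A4 was at 7.02 and the others at 5.55 to 6.18. For Gstk1 it was at 8.34 and the others at 6.83 to 7.48. Clone A4 held the highest value of the clones for 15 of the 36 genes, among them Cat, at 10.41 in clone A5 as well. It held the lowest for 11, including Gsto1, at 8.87 beside 9.53 to 9.67. Over all genes, with ties left out, the shares were 19.6% and 30%.

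Endothelial cells, the usual bearers of PECAM1, gave a point of reference. MDEC are 1 array of another cell type, whose spread was not taken to be that of the clones, so no test was run. A gene passed a rule of size when MDEC lay outside all 6 B16F10 arrays and differed at least 2-fold from the B16F10 mean, taken as the average of the PECAM1+ and PECAM1− means. By that rule 7 of the 36 genes passed, where 13.3% of all genes did: 5 were higher in MDEC, where 6.4% of all genes were, and 2 lower, where 6.86% were. Nqo1 was higher by 5.75 log2 units, Mgst1 by 4.50, Slc7a11 by 3.37, Gsto1 by 1.68 and Selenop by 1.61. Gss and Gstm5 were lower, at −1.26 and −1.02. Gstm5 no longer passed with quantile normalization (−0.94), with median centring (−0.96) or without clone A2 (−0.99). Cell type and growth medium cannot be told apart in these values. Of 9 leukocyte and platelet markers, Lyz2 (5.54) and Cd68 (2.75) were past the rule as higher in MDEC. No other marker of that list was past it. The mean log2 level of the list was 6.74 in MDEC and 5.597 to 5.98 in B16F10. The part of these markers in the MDEC values was not tested. Nqo1, Mgst1 and Slc7a11 were also past 4-fold, where 2.72% of all genes were higher by that much, and no member was lower by that much (2.01%). The Slc7a11 difference was 1.97 without parental cells, under 4-fold, and 4.77 without clone A1, and that of Selenop was 1.03 and 2.20. Irrespective of size, 10 members were above all B16F10 arrays in MDEC (26.5% of all genes) and 10 below (26.3%).

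Clone A1 set part of the B16F10 range. With clone A1 left out, 12 genes were past the rule, 10 higher (6.9% of all genes) and 2 lower (7.96%). Those added were Hmox1, 2.10 above the B16F10 mean, Gsta4 (2.58), Gclc (1.11), Gstm1 (1.05) and Cat (1.03), and Gstk1 at −1.25, while Gstm5 (−0.78) no longer passed. Levels in MDEC and clone A1 were 12.32 and 12.66 for Hmox1, 10.06 and 10.07 for Gclc, and 11.62 and 11.41 for Slc7a11. They were far apart for Nqo1, at 10.52 and 5.55, and for Srxn1, at 10.53 and 11.78. The dismutase genes Sod1, Sod2 and Sod3 were each below all B16F10 arrays in MDEC, at −0.60, −0.43 and −0.74 from the B16F10 mean.

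**Figure D5:**
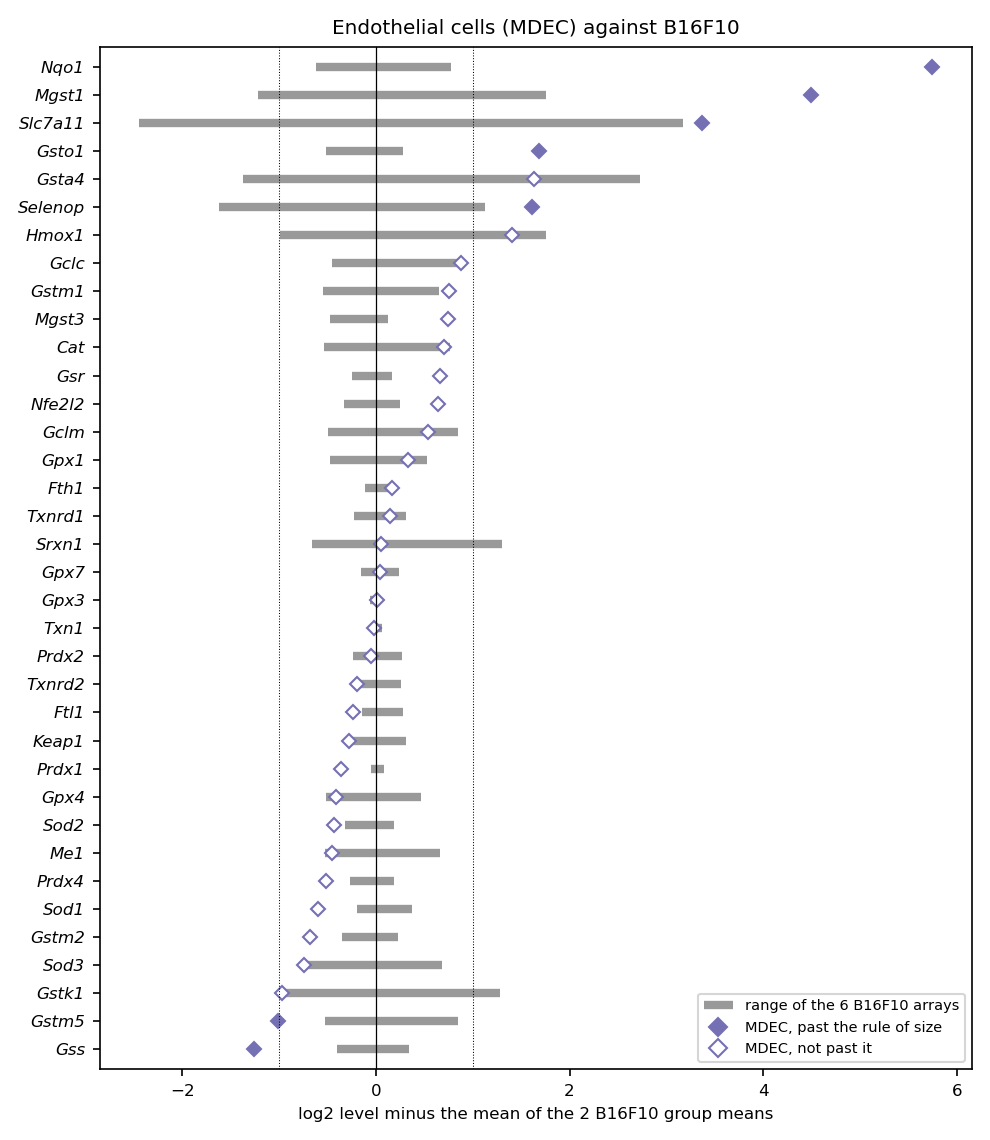
Log2 level of each gene in MDEC (diamonds; filled where past the rule of size) and range of the 6 B16F10 arrays (bars), both minus the mean of the B16F10 group means; dotted lines mark 2-fold. Nqo1, Mgst1, Slc7a11, Gsto1 and Selenop are filled to the right, and Gss and Gstm5 to the left.

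Of 167 other genes of the pathway, 160 were measured. None was called by limma between PECAM1+ and PECAM1− arrays or against parental cells. Against clone A1, 22 were called higher and 32 lower, where 9.33% and 11.2% of all genes were. Among 14 partners and regulators of NRF2, 9 were called lower than in clone A1 and 1, Rbx1, higher. Those lower included Osgin1, an oxidative stress response gene (−1.70), the small MAF genes Mafg (−1.68) and Maff (−1.18), and Bach1 (−1.16), which encodes a repressor at the same elements. Among 21 further detoxification genes 6 were lower and 2 higher. Blvrb, a biliverdin reductase gene, differed by −2.58, the conjugate exporter gene Abcc2 by −2.34 and the aldehyde oxidase gene Aox1 by −1.56, while the quinone reductase gene Nqo2 differed by 1.11. Of 15 further glutathione transferases 6 were lower and 0 higher, with Gstm6 at −3.20, Gstt1 at −1.53 and Gstm4 at −1.43.

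Other parts of the network were mixed. Over all genes, 9.33% were called higher than in clone A1 and 11.2% lower. Of 22 further genes of glutathione turnover 4 were called higher than in clone A1, with Glrx3 at 1.60, and 2 lower. Of 16 further thioredoxin, peroxiredoxin and repair genes 2 were called each way. Selenium genes were called higher in 6 of 18 and lower in 3, with Sephs1, a selenophosphate synthetase gene, at 1.30. Of 17 further NADPH enzymes 3 were higher, Me2 at 1.48, Mthfd1 at 1.36 and Mthfd1l at 1.24, and 1 lower, Pgd of the pentose phosphate pathway at −0.54. In the iron and haem list 2 were higher and 2 lower: the transferrin receptor gene Tfrc differed by 1.13 and the iron exporter gene Slc40a1 by −2.01. Among 8 lipid peroxide defence genes 1 was called each way, Gch1 at −0.84 and Vkorc1l1 at 0.42. Of 14 oxidant-producing enzymes 1, Nox1, was called higher. Nox1 and Gch1 were under a log2 level of 6 on all B16F10 arrays, and Maff, Abcc2 and Gstm6 on some of them. Signal over background is not known at such levels. In MDEC, 18 of the 160 genes were past the rule as higher and 24 as lower, where 6.4% and 6.86% of all genes were. The highest were Slc40a1, by 2.88, Chac1, which encodes an enzyme that degrades glutathione, by 2.83, and the oxidase gene Nox4 by 2.62. The lowest relative to B16F10 were the gamma-glutamyltransferase family gene Ggt7, at −3.75, the ceruloplasmin gene Cp, at −3.70, the folate enzyme gene Aldh1l1, at −3.48, and the prostaglandin D synthase gene Hpgds, at −3.32.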

How the data were processed

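Each array was deposited as log2 levels of 35557 probe sets. Per the submitters' processing notes they were made with Partek. How Partek summarised and normalized the probes is not given in the sources used here, and the log2 scale was read from the values (1.39 to 13.5). The platform annotation named 1 gene for 21789 of them, several for 1621 and none for 12147. Each of 19938 genes was represented by its brightest probe set on average, and symbols matched a GRCm38.p6 gene table by Entrez identifier for 21698 probe sets.

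Differences are PECAM1+ minus the other group. They were tested with limma 3.58.1 in R 4.3.3 (lmFit, eBayes with trend), two-sided, with Benjamini-Hochberg adjustment over all genes and a threshold of 0.05, and the script was tested on simulated arrays. Any pair of arrays had exactly equal values for 6.86% to 13.1% of genes, which can make a spread too small; 8 members had one within B16F10. Precision is limited by how few arrays there are. The members and lists were chosen with earlier results of these data known. Values on each array are given for members called, those at least 2-fold apart with separate PECAM1 groups, and those past the rule of size. Of each other list described, up to 4 genes are named, mostly called genes with large differences. Any gene that is the only 1 called in its direction is named as well. For MDEC, genes with the largest differences over all these lists are named. The other members given by array, and Slc7a11 among the printed promoters, were chosen after values were seen. Alternatives were other scalings, a filter on dim genes, probe set means, other eBayes settings, array weights and leaving out each array.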

Additional observations from a re-analysis of the deposited data

Results flagged for a closer look

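In 4 of the 36 genes, 1 PECAM1+ clone lay far from the other 3 relative to their range. The rule is set to flag about 1 in 20 groups of 4 by chance. The share it flags over all genes was not computed, and exactly equal values, as in Sod3, can make a gene pass. The count is therefore not read as an excess. Gsr was at 9.05 in clone A4 and 9.32 to 9.36 in the others. Sod3 was at 7.54 in clone A3 and 6.96 in the others, which shared 1 value. Ftl1 was at 12.67 in clone A4 and 12.47 to 12.50 in the others. Gpx3 was at 4.61 in clone A2 and 4.68 to 4.69 in the others.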

How the results depend on the processing

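Against both PECAM1− samples, 0 members were called under each scaling, filter, probe set, eBayes and array-weight alternative, and 0 to 14 when 1 array was left out, the 14 without parental cells. Against parental cells, 0 were called under every alternative run. Against clone A1, 14 to 16 were called under the other settings and 7 to 12 without 1 clone. By the rule of size in MDEC, 3 members passed at 4-fold, and 6 to 12 without 1 B16F10 array, the 12 without clone A1. Fewer arrays enter the fits that leave 1 out. Of 279 limma results for single genes under the alternatives, 254 kept their direction and side of the threshold, 21 lost a call and 4 gained one. Of 69 MDEC differences, 59 moved by less than the SD of the 4 PECAM1+ clones and 10 by more, each of these without parental cells or clone A1; Gstm5 missed the rule of size at 2-fold in 4 of its alternatives, and the other 6 members passed in all of theirs. No direction reversed. No paired analysis was possible because no number in the labels pairs the samples.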
